A study of Mus musculus with 8 samples.

Results

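Matrix metalloproteinases (MMPs) and the tissue inhibitors of metalloproteinases (TIMPs) were followed in dystrophic tibialis anterior (TA) muscle. The 10 genes were taken by symbol from a table of 55401 genes. They were 6 MMPs (*Mmp2*, *Mmp3*, *Mmp9*, *Mmp12*, *Mmp14* and *Mmp19*) and all 4 TIMPs (*Timp1*, *Timp2*, *Timp3* and *Timp4*). Whole TA muscles, 4 WT and 4 *mdx5cv*, came from male mice 6 months old on the C57/Bl6 background. The *mdx5cv* mouse is a model of Duchenne muscular dystrophy with a germline mutation in *Dmd*, so every tissue of the animal carries it, and the WT mice carried no allele or treatment named in the labels. Each muscle gave 1 stranded total RNA library. The labels number the samples within a genotype without naming the animal, so p-values measure the spread between these samples. The comparison asks how transcripts of the proteases and of their inhibitors differ between dystrophic and WT muscle.

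MMPs are zinc-dependent endopeptidases that cleave collagens, laminins, elastin and other proteins outside the cell. Most are made as inactive precursors and are activated by removal of a propeptide, and TIMPs block the active enzymes by binding to the catalytic site. In muscle, both families take part in remodeling of the matrix around fibers during injury, regeneration and fibrosis. RNA levels do not show how much of an enzyme is active.

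Reads per library were between 13175524 and 14921057. *Dmd* fell from 6954 ± 857 normalized counts in WT to 3964 ± 388 in *mdx5cv* (SD, n = 4 each, log2 fold change −0.81, limma adjusted p = 0.000177), in the direction of the labels. A normalized count is the reads of a gene divided by a size factor for its library. Muscle fiber markers were abundant in all 8 libraries, with a sum of 8 genes between 1042910 and 1249370 in WT and between 718537 and 1108170 in *mdx5cv*. Mitochondrial transcripts took 30.0% to 38.7% of the reads in WT and 25.3% to 32.1% in *mdx5cv*. In bulk muscle, a change in the number of cells of a type and a change in RNA per cell cannot be told apart.

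Among the genes with a promoter entry, sequences are shown first for those whose levels differed most between the groups. RefSeq promoters on GRCm38.p6 were matched for 7 of the 10 genes, with 8 entries, and *Mmp2*, *Mmp9* and *Mmp19* had no entry in the table used. Each sequence holds the 250 bases before an annotated start, 5′ to 3′ on the strand of the gene. *Mmp12* (its downstream start) is at chr9:7347124-7347373 (+), *Mmp3* at chr9:7445572-7445821 (+), *Mmp14* at chr14:54431348-54431597 (+), *Timp1* at chrX:20869916-20870165 (+) and *Timp4* at chr6:115252206-115252455 (−). Capitals mark 3 motifs. The AP-1 motif was searched as TGANTCA, the TATA motif was searched with the letters TATAAA, and the GC box was searched as GGGCGG on either strand, so that it can appear as its reverse complement.

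Mmp12: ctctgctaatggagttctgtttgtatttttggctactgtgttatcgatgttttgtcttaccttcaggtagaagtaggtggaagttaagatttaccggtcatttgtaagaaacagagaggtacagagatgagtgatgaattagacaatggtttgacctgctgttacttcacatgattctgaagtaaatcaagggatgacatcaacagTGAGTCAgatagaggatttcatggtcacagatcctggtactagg

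Mmp3: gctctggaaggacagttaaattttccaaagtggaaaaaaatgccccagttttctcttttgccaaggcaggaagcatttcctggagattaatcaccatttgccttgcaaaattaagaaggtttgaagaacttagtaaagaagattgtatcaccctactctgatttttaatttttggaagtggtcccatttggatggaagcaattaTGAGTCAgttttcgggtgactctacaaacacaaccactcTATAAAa

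Mmp14: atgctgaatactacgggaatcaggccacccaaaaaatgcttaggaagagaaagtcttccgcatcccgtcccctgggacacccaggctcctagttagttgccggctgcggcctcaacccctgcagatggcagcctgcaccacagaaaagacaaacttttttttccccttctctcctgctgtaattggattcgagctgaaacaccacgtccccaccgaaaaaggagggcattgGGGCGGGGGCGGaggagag

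Timp1: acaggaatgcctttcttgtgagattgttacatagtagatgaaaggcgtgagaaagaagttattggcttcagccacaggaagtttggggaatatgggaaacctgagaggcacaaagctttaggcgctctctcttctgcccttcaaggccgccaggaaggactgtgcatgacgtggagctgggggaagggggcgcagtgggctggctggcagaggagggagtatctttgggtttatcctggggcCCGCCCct

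Timp4: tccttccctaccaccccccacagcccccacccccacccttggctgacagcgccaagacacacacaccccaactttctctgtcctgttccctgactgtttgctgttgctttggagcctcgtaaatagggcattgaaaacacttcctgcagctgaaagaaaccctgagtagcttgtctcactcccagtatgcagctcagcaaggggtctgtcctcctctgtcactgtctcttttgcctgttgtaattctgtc

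Motifs were searched on both strands, and no match overlapped a match of another motif. *Mmp12* held TGAGTCA 44 to 38 bases before its downstream start. *Mmp3* held the same letters 46 to 40 bases before its start, followed by the TATA motif at 7 to 2 bases. No match was found before the upstream start of *Mmp12*. *Mmp14* held a pair of adjoining GC boxes, *Timp1*, *Timp2* and *Timp3* held 1 each, and the *Timp4* sequence held none of these motifs. Among 32851 promoters of this length, the AP-1 motif was found in 6.75%, the TATA motif in 12.4% and the GC box in 32.7%. These matches describe letters in a window, and no binding was measured.

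All 10 genes had a mean of 10 or more normalized counts, the filter for low values, and were tested. A gene was called when the limma adjusted p was under 0.05 and the absolute log2 fold change was at least 1. Of the 10 genes, 6 were called higher in *mdx5cv* and 1 was called lower, where 10.3% of the 13677 genes tested were called higher, 3.27% lower and 13.6% in either direction. The genes called higher were *Mmp12*, *Mmp3*, *Timp1*, *Mmp19*, *Mmp14* and *Mmp2*, and the gene called lower was *Timp4*. *Mmp3*, *Mmp12* and *Timp1* had WT means under 10 and passed the filter only through *mdx5cv*, so for these 3 the filter itself required a difference. By adjusted p alone 7 were higher and 2 lower, against 20.9% and 20.1% of all genes (40.9% in either direction). In 7 genes every *mdx5cv* muscle was above every WT muscle and in 2 every one was below, where 20.3% and 19.8% of genes tested showed such a separation (40.1% in either direction). The median log2 fold change was 2.49 over the 6 MMPs and −0.05 over the 4 TIMPs, beside 0.00 over all genes tested. It was 0.71 over the 5 other MMPs that were tested.

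**Figure D1:**
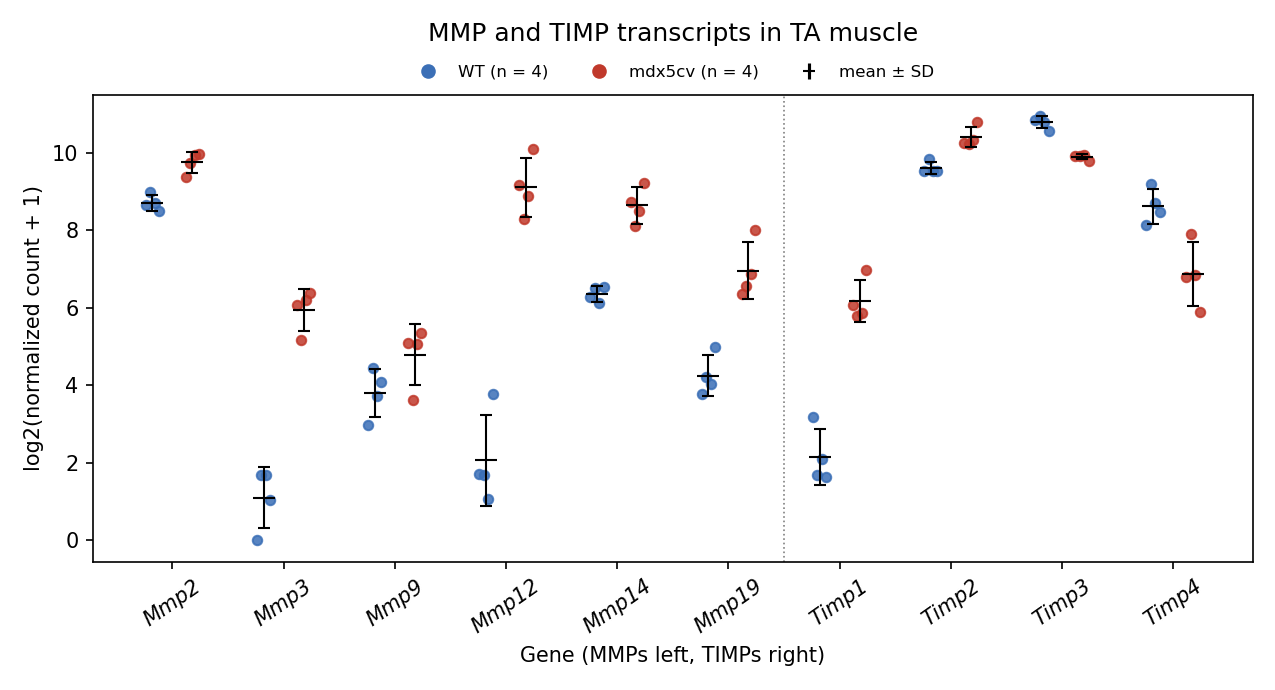
Expression of each gene in each muscle, as log2(normalized count + 1), with WT in blue and *mdx5cv* in red (n = 4 each) and black bars for the mean ± SD. *Mmp12* and *Mmp3* lie low in WT and far higher in *mdx5cv*, the groups overlap for *Mmp9*, and *Timp3* and *Timp4* lie lower in *mdx5cv*.

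*Mmp12* encodes macrophage elastase, a secreted enzyme that cleaves elastin. Its gene (ENSMUSG00000049723) is at chr9:7344381-7369499 (+). *Mmp12* had 2.29, 2.19, 1.11 and 12.7 normalized counts in the 4 WT muscles and 576, 310.4, 472 and 1105 in the 4 *mdx5cv* muscles. The lowest *mdx5cv* muscle was far above the highest WT muscle. Its mean rose from 4.58 ± 5.45 to 616 ± 344 (SD, n = 4). On the log2 scale the rise was 7.05 (SE 0.50, limma adjusted p = 8.27e-07) and ranked 2 among all genes tested. The WT libraries held only 1 to 12 reads of it, so the ratio of the means, 134.6, is uncertain. Without WT replicate 4, which held 12 of the 17 WT reads, that ratio was 330.4.

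*Mmp3* encodes stromelysin 1, which cleaves many matrix proteins and can activate other MMP precursors. It is at chr9:7445822-7455975 (+), ENSMUSG00000043613. *Mmp3* had 0, 2.19, 2.21 and 1.06 normalized counts in WT and 65.8, 34.9, 72.0 and 82.3 in *mdx5cv*. WT muscle was at the edge of detection, with 5 reads over 4 libraries, and the library with 0 reads allows a level of up to 3.44 normalized counts (3 reads). All *mdx5cv* libraries held between 37 and 103 reads. Its log2 fold change was 4.85 (SE 0.43, limma adjusted p = 4.97e-06), on a scale with a pseudocount of 1 that understates the change of a gene this low in WT. Intervals and limits of this kind cover counting error only.

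*Mmp14* encodes a membrane-type MMP that sits on the cell surface, cleaves fibrillar collagen and activates the *Mmp2* precursor together with *Timp2*. It is at chr14:54431612-54445364 (+), ENSMUSG00000000957. *Mmp14* had 76.8, 91.0, 68.6 and 92.2 normalized counts in WT and 428, 274, 363 and 598 in *mdx5cv*. The groups did not overlap. The mean was 82.1 ± 11.4 in WT and 416 ± 137 in *mdx5cv*, where the spread was wider. It rose by a log2 fold change of 2.28 (SE 0.20, limma adjusted p = 4.61e-06).

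*Mmp2* encodes gelatinase A, which cleaves denatured collagen and basement membrane collagen. It is at chr8:92827291-92853420 (+), ENSMUSG00000031740. *Mmp2* had 402, 510, 418 and 359 normalized counts in WT and 663, 849, 985 and 996 in *mdx5cv*. It was the most abundant of the 6 MMPs in both groups, and the groups did not overlap. The log2 fold change of 1.04 (SE 0.14, limma adjusted p = 0.000118) lay just past the threshold of 1. It was 0.94 with centring on the median, and 0.97 without WT replicate 4, 0.98 without *mdx5cv* replicate 3 and 0.97 without *mdx5cv* replicate 4, so the call was lost in each while the adjusted p stayed under 0.05.

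*Mmp9* encodes gelatinase B, the other gelatinase, which is stored in neutrophils. It is at chr2:164940780-164955850 (+), ENSMUSG00000017737. *Mmp9* had 6.88, 20.8, 12.2 and 15.9 normalized counts in WT and 33.4, 11.3, 32.4 and 40.0 in *mdx5cv*. The *mdx5cv* replicates 1, 3 and 4 were above all WT muscles and replicate 2 was inside the WT range. Its log2 fold change was 0.98 (SE 0.41) and did not pass the test (limma adjusted p = 0.0699). Without *mdx5cv* replicate 2 it was 1.37 (adjusted p = 0.00744), without WT replicate 2 it was 1.19 (adjusted p = 0.0442), and the edgeR quasi-likelihood test gave 1.07 (adjusted p = 0.0468).

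The neutrophil markers were read beside *Mmp9*. Of 10 such genes only *Csf3r*, a cytokine receptor of neutrophils and some monocytes, was tested, and it passed the filter only through *mdx5cv* (6.02 ± 2.73 normalized counts in WT and 52.9 ± 29.3 in *mdx5cv*). The summed level of all 10 was 4.58 to 14.3 in WT and 29.7 to 99.1 in *mdx5cv*, but without *Csf3r* it was 2.12 to 7.68 and 3.71 to 7.55, with overlap. *Elane*, *Retnlg* and *Camp* were at 0 in all 8 muscles. Their part in the *Mmp9* values was not tested.

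*Mmp19* encodes a secreted MMP with a broad range of matrix substrates. It is at chr10:128790910-128800824 (+), ENSMUSG00000025355. *Mmp19* had 12.6, 17.6, 15.5 and 30.7 normalized counts in WT and 81.5, 93.4, 117 and 257 in *mdx5cv*. The groups did not overlap, and replicate 4 was the highest of each group. The rise was 2.70 on the log2 scale (SE 0.34, limma adjusted p = 5.33e-05). Its exons overlap *Tmem198b* on the other strand, which had 26.6 ± 5.68 normalized counts in WT and 49.0 ± 3.77 in *mdx5cv*. Whether counting used the strand is not given in the sources used here, so shared reads are possible.

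*Timp1* encodes a secreted inhibitor of most MMPs. It is at chrX:20870166-20874735 (+), ENSMUSG00000001131, within an intron of *Syn1* on the other strand. *Timp1* had 8.02, 2.19, 3.32 and 2.12 normalized counts in WT and 65.8, 54.7, 57.6 and 125 in *mdx5cv*. Its groups were far apart, and it was the only TIMP called higher with the deposited size factors. It rose by 4.03 on the log2 scale (SE 0.38, limma adjusted p = 6.47e-06). The means rested on 14 WT reads, and their ratio of 19.3 was 29.8 without WT replicate 1, which held 7 of them. *Syn1* had 0 reads in WT and at most 9 in a *mdx5cv* library.

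*Timp2* encodes an inhibitor that also takes part in the activation of the *Mmp2* precursor at the cell surface. It is at chr11:118301069-118355740 (−), ENSMUSG00000017466. *Timp2* had 736, 924, 741 and 735 normalized counts in WT and 1229, 1207, 1285 and 1771 in *mdx5cv*. Every *mdx5cv* muscle was above every WT muscle. The log2 fold change was 0.80 (SE 0.13, limma adjusted p = 0.000445), which passed the test but was under the fold threshold. With equal totals it was 1.15, and 1.01 with equal totals without mitochondrial genes, and *Timp2* was then called higher.

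*Timp3* encodes an inhibitor that is held in the matrix and also blocks Adam17 and Adamts enzymes. It is at chr10:86300372-86349506 (+), ENSMUSG00000020044, inside *Syn3* on the other strand. *Timp3* had 1852, 1983, 1772 and 1522 normalized counts in WT and 973, 974, 994 and 889 in *mdx5cv*. The *mdx5cv* muscles were close to each other, and all were below WT. The log2 fold change was −0.89 (SE 0.10, limma adjusted p = 2.82e-05), past the test and under the fold threshold. *Syn3* shares exon sequence with it but had only 6.09 ± 1.62 normalized counts in WT and 2.67 ± 1.32 in *mdx5cv*.

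*Timp4* encodes the inhibitor with the most restricted expression, high in heart and muscle. It is at chr6:115241892-115252205 (−), ENSMUSG00000030317, inside *Syn2* on the other strand. *Timp4* had 279.6, 588, 415 and 352 normalized counts in WT and 111, 240, 113 and 58.3 in *mdx5cv*. The highest *mdx5cv* muscle was below the lowest WT muscle, by a narrower gap than for *Timp3*. The log2 fold change was −1.76 (SE 0.33, limma adjusted p = 0.00105), the only call in the lower direction. *Syn2*, which shares exon sequence with it, had 12.7 ± 3.51 and 11.5 ± 4.65 normalized counts, with a log2 fold change of −0.16 (limma adjusted p = 0.749).

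**Figure D2:**
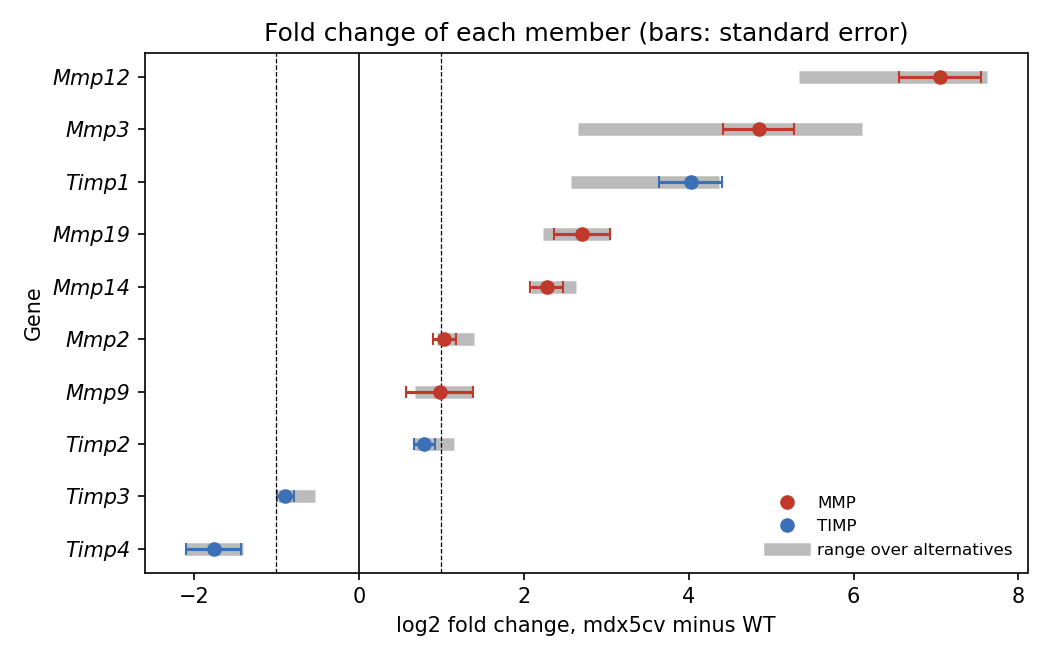
Log2 fold change of each gene, *mdx5cv* minus WT, with MMPs in red and TIMPs in blue, error bars for the standard error, gray bands for the range over the alternative fits and dashed lines at the threshold of 1 in each direction. The values run from 7.05 for *Mmp12* to −1.76 for *Timp4*, and no band crosses 0.

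Levels were compared between genes only per kilobase of merged exons. The sums, shares and ratio below cover the 6 MMPs followed here and leave out the 17 others. Among those was *Mmp15*, with 257 ± 53.1 normalized counts over 5.40 kb of merged exons in WT. That was above *Mmp14*, with 82.1 ± 11.4 over 5.96 kb. *Mmp15* had 300 ± 34.7 in *mdx5cv* (log2 fold change 0.24, limma adjusted p = 0.213). Per kilobase, the summed level of the 6 MMPs was 149.8 ± 19.7 in WT (SD, n = 4). It was 496 ± 130 in *mdx5cv*, without overlap of the groups. The 4 TIMPs summed to 494 ± 62.3 and 577 ± 91.1, with overlap. Without division by length the TIMP sums were 2611 to 3497 normalized counts in WT and 2379 to 2843 in *mdx5cv*, so the direction of this difference depends on the length used. The MMP sum divided by the TIMP sum was 0.292, 0.307, 0.300 and 0.314 in the WT muscles and 0.790, 0.733, 0.934 and 0.950 in the *mdx5cv* muscles. The WT values were close to each other, and each *mdx5cv* value was above them. This ratio is a description of transcripts and was not tested, and with the longest transcript in place of merged exons it was 0.261 in WT and 0.919 in *mdx5cv*. With no division by length it was 0.183 and 0.832.

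The make-up of these 6 MMPs and of the 4 TIMPs differed between the groups. *Mmp2* took 83.5% ± 4.12 of the MMP sum in WT and 53.4% ± 9.77 in *mdx5cv*. *Mmp12* took 0.445% ± 0.557 and 16.4% ± 5.33, which placed it after *Mmp2* among the 6 in *mdx5cv*. *Mmp14* took 9.27% ± 1.44 and 14.0% ± 2.53, and its share did not overlap between the groups. The shares of *Mmp12* and *Mmp14* in *mdx5cv* did not differ beyond their spread.

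Among the inhibitors, *Timp3* took 44.4% ± 2.83 of the TIMP sum in WT and 20.8% ± 3.67 in *mdx5cv*, and *Timp2* took 40.8% ± 1.62 and 60.8% ± 2.32. In WT the levels of *Timp3* (219 ± 23.8 per kilobase) and *Timp2* (201 ± 23.9) were within their spread, followed by *Timp4* (69.3 ± 22.4) and *Timp1* (4.41 ± 3.15). In *mdx5cv* the order was *Timp2* (352 ± 68.6), *Timp3* (118 ± 5.72), *Timp1* (85.2 ± 37.1) and *Timp4* (22.2 ± 13.1), with *Timp3* and *Timp1* within their spread. With the longest transcript, *Timp3* in WT was 377 ± 41.1 per kilobase and stood above *Timp2* at 211 ± 25.1. In *mdx5cv* it was then 203 ± 9.86 and stood above *Timp1* at 85.7 ± 37.3. The order of the means was the same.

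**Figure D3:**
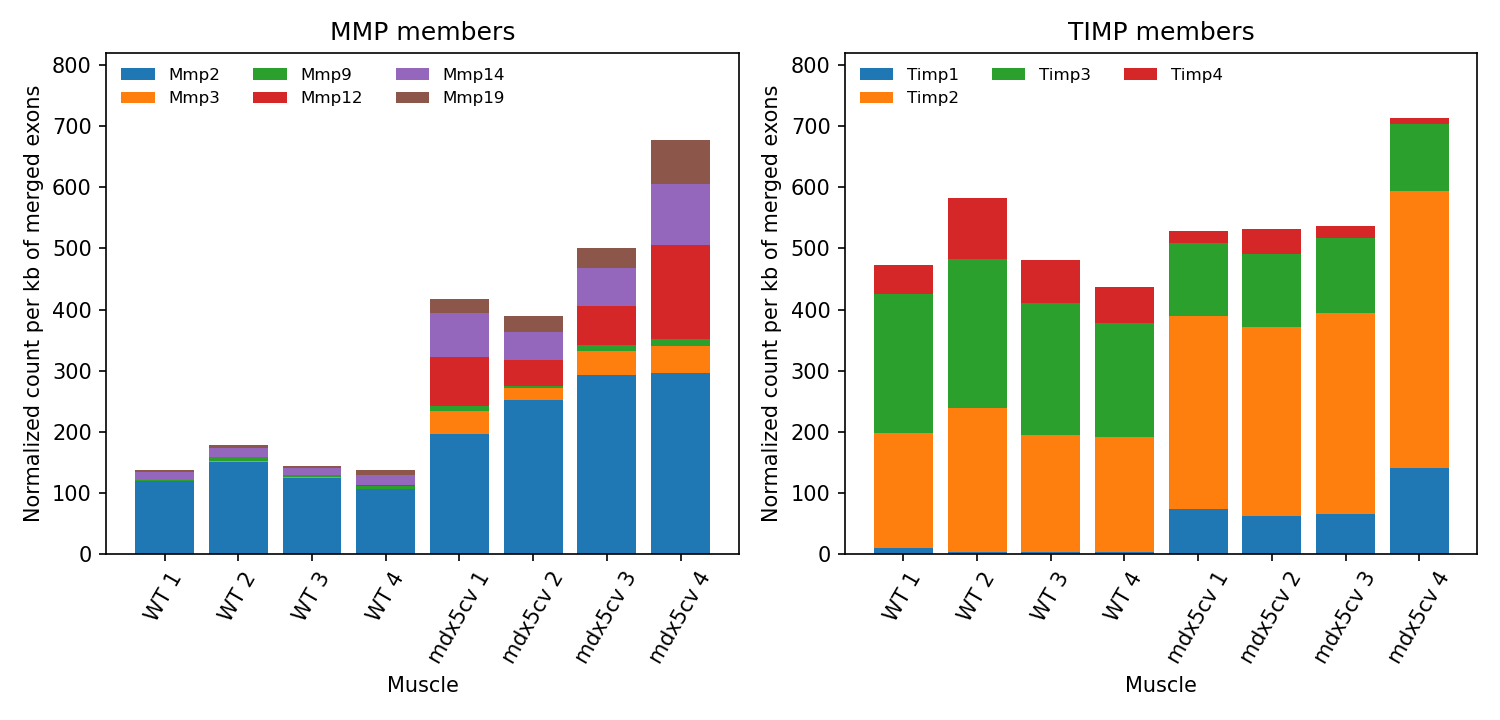
Normalized counts per kilobase of merged exons in each of the 8 muscles, stacked by gene, for the 6 MMPs (left) and the TIMPs (right). The MMP stacks are higher in every *mdx5cv* muscle, while the TIMP stacks overlap between groups and change in make-up, with more *Timp2* and *Timp1* and less *Timp3* and *Timp4*.

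*Mmp12* and *Mmp3* lie in a cluster of 10 MMP genes spread over 427 kb of chromosome 9. In the order along the chromosome these are *Mmp13*, *Mmp12*, *Mmp1b*, *Mmp3*, *Mmp1a*, *Mmp10*, *Mmp8*, *Mmp27*, *Mmp20* and *Mmp7*. Only *Mmp13*, *Mmp12* and *Mmp3* had enough counts to be tested. All 3 were called higher, and all 3 had WT means under 10 and passed the filter only through *mdx5cv*, which largely fixed that count. *Mmp13*, a collagenase, had 7.96 ± 10.2 normalized counts in WT and 49.4 ± 28.5 in *mdx5cv*, with overlap of the groups (log2 fold change 2.93, SE 0.66, limma adjusted p = 0.00338). The ratio of its means was 6.21, and 16.9 without WT replicate 2, which held 21 of the 29 WT reads.

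The rest of the cluster was low or silent. *Mmp1a*, *Mmp1b*, *Mmp20* and *Mmp7* had no reads in any muscle, which allows up to 3 reads in a library. *Mmp1b* shares exon sequence with *Mmp12* on the other strand, and whether counting used the strand is not given in the sources used here. Over the 4 libraries of a group, *Mmp10* had 0 reads in WT and 5 in *mdx5cv*, *Mmp8* had 4 and 29, and *Mmp27* had 4 and 27. Of the 10 genes, 8 held the AP-1 motif before at least 1 start, and the genes without it were *Mmp8* and *Mmp27*. The 4 genes with no reads were among those that held it.

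**Figure D4:**
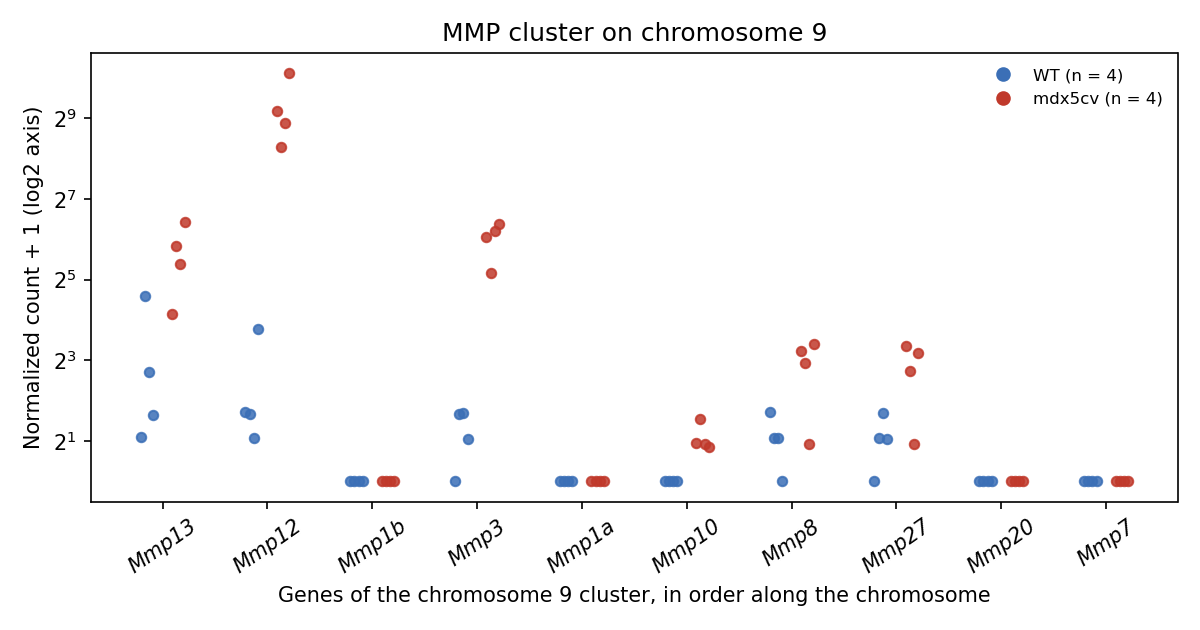
Normalized count + 1 of each gene of the chromosome 9 cluster in each muscle, on a log2 axis, in the order of the genes along the chromosome, with WT in blue and *mdx5cv* in red (n = 4 each). *Mmp12* reaches 1105 normalized counts in *mdx5cv*, beside neighbors with no reads in any muscle.

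The *mdx5cv* muscles did not rise evenly. Replicate 4 was the highest of the 4 for 8 of the 10 genes, which were all 6 MMPs, *Timp1* and *Timp2*, and it was the lowest for *Timp3* and *Timp4*. Replicate 2 was the lowest for 6 genes and the highest for *Timp4*. Over all genes tested, replicate 4 also lay farthest from WT on the first principal component, the axis of largest spread (73.9% of the variance). It was at 79.1 there, beside 53.9, 40.8 and 39.6 for *mdx5cv* replicates 1, 2 and 3. The genes share these libraries, so the order is a description of 4 muscles.

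Cell type markers moved with this order in part. The sum of 12 macrophage markers was 649.8 to 977 in WT and 5933, 4973, 4431 and 10634 in *mdx5cv* replicates 1 to 4. Of the 12, 11 were called higher, beside 10.3% of all genes tested, and 2 of the 12 passed the filter only through *mdx5cv*. *Cd163*, a scavenger receptor of resident macrophages, was called lower. The sum of 6 regenerating fiber markers was 118 to 143 in WT and 4814, 2175, 3000 and 8502 in *mdx5cv*. All 6 were called higher, beside the same 10.3%, and 3 of them passed the filter only through *mdx5cv*. Replicate 4 was highest for both lists, and it was the lowest for muscle fiber markers at 718537. The sum of 10 fibroblast markers was 9258 to 15312 in WT and 13452 to 18511 in *mdx5cv*, with overlap. *Gsn* and *Dcn* dominated that sum, and the other 8 markers summed to 1612 to 2127 and 6484 to 12300. Most of the sum of these 8 in *mdx5cv* was the collagen gene *Col1a1* (780.2 ± 161 in WT and 6996 ± 2217 in *mdx5cv*), which is also on the matrix list below. Of the 10, 5 were called higher and 0 lower (10.3% and 3.27% of all genes tested), and 7 were higher by adjusted p (20.9%). The sum of 7 endothelial markers was 3192 to 3764 in WT and 1924 to 2464 in *mdx5cv*. Of the 7 endothelial markers, 0 were called, and 6 were lower by adjusted p (20.1% of all genes tested). The sum of 7 pericyte and smooth muscle markers was 10979 to 11913 and 8273 to 9238, without overlap. *Rgs5* (4696 ± 708 to 2565 ± 334) and *Abcc9* (4720 ± 295 to 3812 ± 426) held most of it. Of these 7, 0 were called, and by adjusted p 3 were higher and 4 lower. The sum of 6 satellite cell markers was 335 to 381 and 628 to 1012, also without overlap. *Myod1* (mean 180 in WT and 490 in *mdx5cv*) and *Vcam1* (mean 42.8 and 130) carried most of that rise. Of the 6 satellite cell markers, 5 were tested, and only these 2 were called higher and 0 lower (10.3% and 3.27% of all genes tested). By adjusted p, 3 were higher (20.9%) and 0 lower. The part of these cells in the MMP and TIMP values was not tested.

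**Figure D5:**
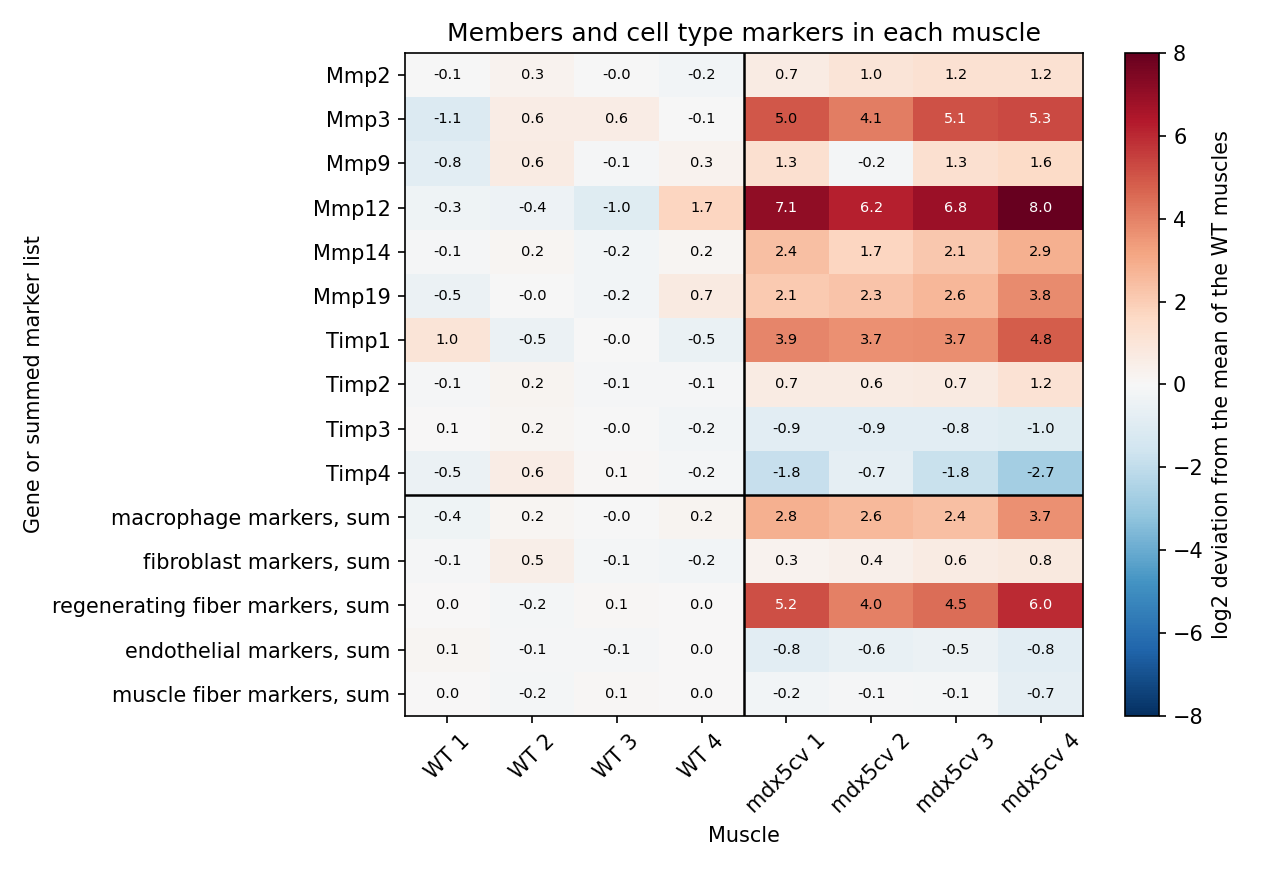
Log2 deviation of each gene, and of the summed markers of 5 cell types, from the mean of the WT muscles, in each of the 8 muscles (red higher, blue lower). *mdx5cv* replicate 4 holds the strongest color for most rows, among them *Mmp12*, *Timp1*, *Timp4* and the macrophage and regenerating fiber markers.

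The genes nearest in pattern were found by the root mean square difference of log2 deviations from the WT mean over the 8 muscles. For *Mmp14* they were the collagen genes *Col6a3* (0.105), *Col1a2* (0.126) and *Col5a2* (0.131). For *Mmp12* they were *Mymk* (0.493), which encodes a myoblast fusion protein, *Chrng* (0.667), the fetal subunit of the acetylcholine receptor, and *Gm19503* (0.790), all near 0 in WT. For *Timp1* they were *Rrm2* (0.340), a subunit of ribonucleotide reductase, *Myh8* (0.420), the perinatal myosin, and *Cxcl16* (0.435), a chemokine. Among those for *Timp4* were *Sult1a1* (0.315), a sulfotransferase, and *Gm27252* (0.331). The distances for *Mmp14* were the smallest of the 4. *Mmp12* and *Timp1* had 17 and 14 WT reads, beside 299 for *Mmp14* and 1487 for *Timp4*. The measure includes the difference between the groups and counting noise, so it does not show covariation between muscles alone.

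Other genes of the system were read from fixed lists of 78 genes. Of these 53 were tested, 19 (35.8%) were called higher and 0 lower by limma, beside 10.3% and 3.27% of all genes tested, with a median log2 fold change of 0.74 beside 0.00 for all genes tested. By adjusted p with no minimum fold change 38 were higher and 3 were lower, beside 20.9% and 20.1% of all genes, and at an unadjusted p under 0.05 there were 41 and 3. Among the 19 called by limma, *Mmp13*, *Adam12*, *Adamts4* and *Plaur* had WT means under 10 and passed the filter only through *mdx5cv*. For these the filter itself required a difference. edgeR called 19 higher and 0 lower, and DESeq2 20 and 0.

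Among 17 other MMPs, 5 were tested and only *Mmp13* was called, where 13.6% of all genes tested were called in either direction. *Mmp28*, an MMP of epithelia and macrophages, went from 42.8 ± 5.72 to 21.9 ± 6.41 normalized counts (log2 fold change −0.97, limma adjusted p = 0.00566), under the fold threshold. Of 26 Adam and Adamts proteases, which TIMPs also inhibit in part, 22 were tested and 9 were called higher, where 10.3% of all genes tested were. *Adam8*, a protease of leukocytes, rose from 16.1 ± 5.22 to 315 ± 129 (log2 fold change 4.17, SE 0.27, limma adjusted p = 5.53e-07). *Adamts4*, an aggrecanase, rose from 2.76 ± 3.19 to 47.4 ± 18.6 (log2 fold change 4.14, SE 0.65, limma adjusted p = 0.000284).

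Of 14 genes of MMP activation and clearance, 11 were tested and 3 were called higher, against the same 10.3%. *Cd44*, a cell surface receptor that can hold Mmp9, rose from 85.6 ± 12.3 to 649.9 ± 273 (log2 fold change 2.84, limma adjusted p = 1.50e-06). *Plaur*, the urokinase receptor, rose from 7.33 ± 5.02 to 49.7 ± 18.1 (log2 fold change 2.70, limma adjusted p = 0.000101). *Lrp1*, which takes up MMP and TIMP complexes, was the third. *Reck*, a membrane-anchored MMP inhibitor, had a log2 fold change of −0.26 (limma adjusted p = 0.320).

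Of 13 matrix substrates, all were tested, 4 were called higher (10.3% of all genes), and 11 were higher by adjusted p (20.9%). *Col1a1* rose from 780.2 ± 161 to 6996 ± 2217 normalized counts and *Col3a1* from 1485 ± 402 to 12659 ± 3557, with log2 fold changes of 3.13 and 3.09. The basement membrane genes *Col4a1* and *Col4a2* had smaller values, 0.64 and 0.63, under the fold threshold. Of 8 cytokines and inducers, only *Spp1* and *Tgfb1* could be tested, and both were called higher (10.3% of all genes). *Spp1*, which encodes osteopontin, rose from 17.5 ± 6.18 to 560 ± 445 (log2 fold change 4.67, limma adjusted p = 5.98e-06), and *Tgfb1* from 26.2 ± 9.36 to 148 ± 50.5 (log2 fold change 2.48, limma adjusted p = 2.48e-05).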

How the data were processed

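Bulk RNA-seq of TA muscle in 4 WT and 4 mdx5cv samples was analysed. Per the file and labels, the deposited values are a normalized signal, that is reads per gene scaled by 1 size factor per library, and no gene had been filtered out. Submitters' processing notes name Trim Galore 0.6.4, STAR 2.6.0c, SAMtools 1.9, featureCounts, DESeq2 1.26.0 and mm10. The annotation and the strand setting of the counting are not given in the sources used here. All values (100%) gave whole reads within 0.01 read, 13175524 to 14921057 per library, and the size factors equaled median-of-ratios factors. Replicates differed by more than sampling noise (chi-square per degree of freedom 8.59 to 38.4).

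For the comparison, log2(normalized count + 1) was fitted in limma 3.58.1 (R 4.3.3) with a variance trend and no covariate. Tests were two-sided with Benjamini-Hochberg adjustment over the 13677 genes whose mean was 10 or more. As alternatives, the recovered reads were analysed with edgeR 4.0.16 and DESeq2 1.42.0. The others were pseudocounts of 0.1 and 10, other filters and scalings, no variance trend, a replicate block, leaving out each muscle, and other thresholds. limma called 1861 genes, edgeR 1912 and DESeq2 2496 of 19561. The fit was tested on simulated data. Python 3.11.15, numpy 2.4.6, pandas 2.3.3 and matplotlib 3.10.9 were used elsewhere. Gene coordinates were taken from GENCODE M21 (GRCm38), which held 55141 of the gene IDs.

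The members and the gene lists were chosen with earlier results of these data known. Genes named are the 10 members, the 2 largest rises and the largest fall called in each list, the synapsin genes around the TIMP genes, the chromosome 9 cluster, the nearest genes in pattern (except 1 gene that is not reported here) and *Dmd*. *Mmp15*, *Mmp28*, *Adam12*, *Lrp1*, *Reck*, *Col4a1*, *Col4a2*, *Tmem198b*, *Gsn*, *Dcn*, *Rgs5*, *Abcc9* and the neutrophil markers at 0 were named after their values were seen.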

Additional observations from a re-analysis of the deposited data

Results flagged for a closer look

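In each group, the lowest or highest of the 4 muscles was set against the range of its group (Dixon's test at the 95% level) for 22 sets of values, namely the 10 genes and the ratio of MMP to TIMP transcripts in each genotype. In 3 sets a muscle stood apart, where chance gives about 1.1. *Mmp9* was lowest in mdx5cv replicate 2, at 3.62 on the log2(normalized count + 1) scale with the others from 5.06 to 5.36. *Timp2* was highest in WT replicate 2, at 9.85 with the others from 9.52 to 9.53, and in mdx5cv replicate 4, at 10.79 with the others from 10.24 to 10.33.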

How the results depend on the processing

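Over 20 alternative fits no gene of the 10 changed direction, and the adjusted p of all but *Mmp9* stayed under 0.05 in every fit that tested them. *Mmp9*, with adjusted p from 0.00744 to 0.194 over the alternatives, passed the test in 5 fits, with log2 fold changes of 1.32 (equal totals), 1.18 (equal totals without mitochondrial genes), 1.19 (without WT replicate 2), 1.37 (without mdx5cv replicate 2) and 1.07 (edgeR). Leaving out each muscle, members called higher ranged from 5 to 7 and other genes of the pathway called lower from 0 to 1. The latter was also 1 with a pseudocount of 0.1 and with centring on the median. With no filter on low values 2202 of all genes were called higher. With at least 10 in every sample, 729 were called higher and 275 lower, with 12 pathway genes higher. Members called higher were then 3, because *Mmp3*, *Mmp12* and *Timp1* were not tested. Equal totals moved the median of all genes to 0.36 on the log2 scale and called 2256 genes higher and 210 lower, with 8 members (*Mmp9* and *Timp2* added) and 32 pathway genes higher, and without mitochondrial genes the median was 0.21, 268 genes were lower and the same 8 members higher. With no minimum fold change, 2854 genes were higher and 2743 lower, 2 members were lower, and 38 pathway genes were higher and 3 lower. With the fold threshold raised to 2 on the log2 scale, 600 genes were higher, 85 lower and 0 members lower (2 members were lower by adjusted p alone). The MMP to TIMP ratio in WT was 0.183 with no division by length (0.832 in mdx5cv) and 0.261 with the longest transcript. The causes of these differences were otherwise not tested.

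With the replicate block, 6 members were called higher and 1 lower, and 20 pathway genes higher. Correlations of same-numbered muscles were 0.031 to 0.146, and 2 of 4 muscles correlated best with their own number, so the numbers were not taken to pair the muscles. Reads of *Mmp3*, *Mmp12* and *Timp1* in WT were few, which limits the precision of their folds.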
